A study of Mus musculus with 10 samples.

Results

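The forkhead (Fox) and SOX genes are 2 families of transcription factors. Here they were the rows of a mouse count table whose symbol is Fox with a letter and a number, or Sox with a number. The rule took 63 of 55401 genes, 44 forkhead genes and 19 SOX genes, and used no measured value. All 63 symbols were found in the GENCODE annotation of GRCm38. RNA came from the ectoderm of forelimb buds at E9.75 (embryonic days), in 3 libraries of embryos labelled SP8&SP6_DOUBLE_KO (DKO) and 3 of wild-type (WT) littermates of the DKO embryos. A digestion on ice (0.25% trypsin, 20 min) loosened the ectoderm, which was then taken off with forceps, and about 2 forelimb buds went into a library. No source used here gives the alleles, the strain or any driver line, and the E10.5 libraries of the series were not analysed here. The libraries are called by the numbers in the table's column names, DKO 17, DKO 40 and DKO 41 and WT 32, WT 53 and WT 56.

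Forkhead proteins bind DNA through a winged-helix domain, and SOX proteins bind through an HMG box that bends the DNA. Members of a subfamily share much of their protein sequence and can often stand in for each other, so the sum over a subfamily is of interest as well as each gene. In developing ectoderm and its neighbours these factors mark lineages: Sox2 and Sox21 appear in placodes and neural ectoderm, Foxi genes in surface ectoderm, Sox9 in epithelial placodes and in the mesenchyme that forms cartilage, Sox10 in neural crest, and Sox7, Sox17 and Sox18 in blood vessels. Sp8 and Sp6 are zinc finger factors of the Sp family, which bind GC boxes, and both are made in the limb ectoderm and its apical ridge.

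Libraries held 64432348 to 87040786 counts and 21716 to 24651 genes with at least 1 count. The targeted gene Sp8 measured 5.86, 2.38 and 2.80 CPM (counts relative to the TMM-scaled total of the library) in DKO 17, DKO 40 and DKO 41 against 34.1, 43.2 and 31.3 in WT 32, WT 53 and WT 56, and fell by 3.29 on the log2 scale (SE 0.302, adjusted p = 8.06e-04). Sp6 measured 133, 13.9 and 76.9 CPM in the DKO libraries against 228, 312 and 319.9 in WT and was not called (log2 change -1.94, SE 0.682, adjusted p = 0.207). Counting over a whole gene checks a deletion only where the deleted part gives reads, and the sources used here do not say which part was deleted. Ectoderm markers summed to 3053 to 4207 CPM in the DKO libraries and 4776 to 5231 in WT. Limb mesenchyme markers summed to 254 to 548 CPM in DKO and 407 to 467 in WT, with Prrx1 highest in WT 32 at 29.0 CPM and DKO 40 at 23.3. Of 18 tested ectoderm markers 4 fell and 1 rose in the edgeR fit over all genes, which called 4.51% of the genes tested. In the same fit 14 of the 18 had an unadjusted p under 0.05, beside 18.0% of all tested genes. The ectoderm list's median log2 change was -0.50. The number of ectoderm calls rests on the libraries: none was called without DKO 40, WT 32 or WT 56, and 8 were called lower without DKO 41. Of 20 apical ridge markers 13 fell, and 10 or 11 did with 1 library left out, while 2 were called higher without DKO 41. That list holds both targeted genes, Sp8, which is among the 13, and Sp6, which was not called. Mesothelial markers summed to 407 to 622 CPM in DKO and 206 to 245 in WT, most of it Krt19 (409 ± 117 against 151 ± 11.8 CPM). Of 7 tested, 4 were called higher (Krt19, Podxl, Lrrn4 and Wt1) and 1 lower, Upk1b (3.31 ± 1.84 against 13.9 ± 2.75 CPM). Without a call, Msln had a lower mean in DKO (0.399 ± 0.141 against 1.37 ± 0.752 CPM) and Upk3b a higher one (3.55 ± 1.73 against 2.97 ± 1.02 CPM). Without WT 32 and DKO 41 together the 1 call was lower. Muscle precursor markers summed to 37.2 to 44.3 CPM in DKO and 20.4 to 27.9 in WT, nearly all of it Met (37.9 ± 3.20 against 23.7 ± 3.88 CPM), which other cells also make. Of 5 tested muscle precursor markers edgeR called Cxcr4 higher (1.42 ± 0.485 against 0.246 ± 0.0697 CPM, log2 change 2.46, adjusted p = 0.0299) and none lower. That call was lost when any library other than DKO 41 was left out. Pax3 (1.06 ± 1.24 against 0.536 ± 0.0372 CPM) and Pax7 (0.321 ± 0.277 against 0.0463 ± 0.0802 CPM) had higher means in DKO without a call. Lbx1 had a lower one (0.116 ± 0.201 against 0.278 ± 0.253 CPM), Myod1 and Myf5 were at 0 in DKO, and Myog was at 0 in all libraries. The part of these cell types in the results was not tested. Erythroid genes differed between libraries of 1 group, with 922 CPM in DKO 41 and 303 in WT 53. No 2 libraries agreed within sampling noise (chi-square per degree of freedom 50.2 to 251 over 15 pairs). The labels do not say whether the samples came from separate embryos, so a p-value here weighs a difference against the spread of these 3 libraries a group, which may be technical.

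In WT ectoderm the highest members per length were SOX genes. Levels of different genes are compared as CPM per kilobase (kb) of merged exons. Sox4, a SoxC factor of undifferentiated cells, led with 44.9 ± 3.31 CPM per kb (SD, n = 3). Sox12, its SoxC relative, measured 28.7 ± 1.30 CPM per kb, and Sox13, a SoxD factor, measured 26.5 ± 3.03. Sox11 of SoxC followed with 19.6 ± 3.23 CPM per kb and Sox9 of SoxE with 19.0 ± 3.21. On this scale the highest forkhead gene was Foxi2, a factor of surface ectoderm, with 16.4 ± 2.29 CPM per kb. Foxm1, which drives mitotic genes, followed with 14.7 ± 0.722, Foxk2 with 13.7 ± 0.952, Foxn3 with 9.82 ± 0.737 and Foxp4 with 9.21 ± 0.265. Among neighbours in this order, Sox4 stood above Sox12, Sox13 above Sox11 and Foxk2 above Foxn3 by more than their SDs added. The other neighbours among these 10 genes lay closer together than that. With the longest transcript as length the 10 genes were the same but the order differed: Sox13 stood above Sox12, Foxm1 (18.2 CPM per kb) above Foxi2 (16.4), and Foxn3 (14.7) above Foxk2 (14.3). In the DKO ectoderm Sox9 took the first place with 40.2 ± 1.57 CPM per kb, ahead of Sox4 with 37.2 ± 5.71, which is within the spread. Foxp4 moved from place 10 to place 6, with 14.0 ± 0.527 CPM per kb.

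**Figure D1:**
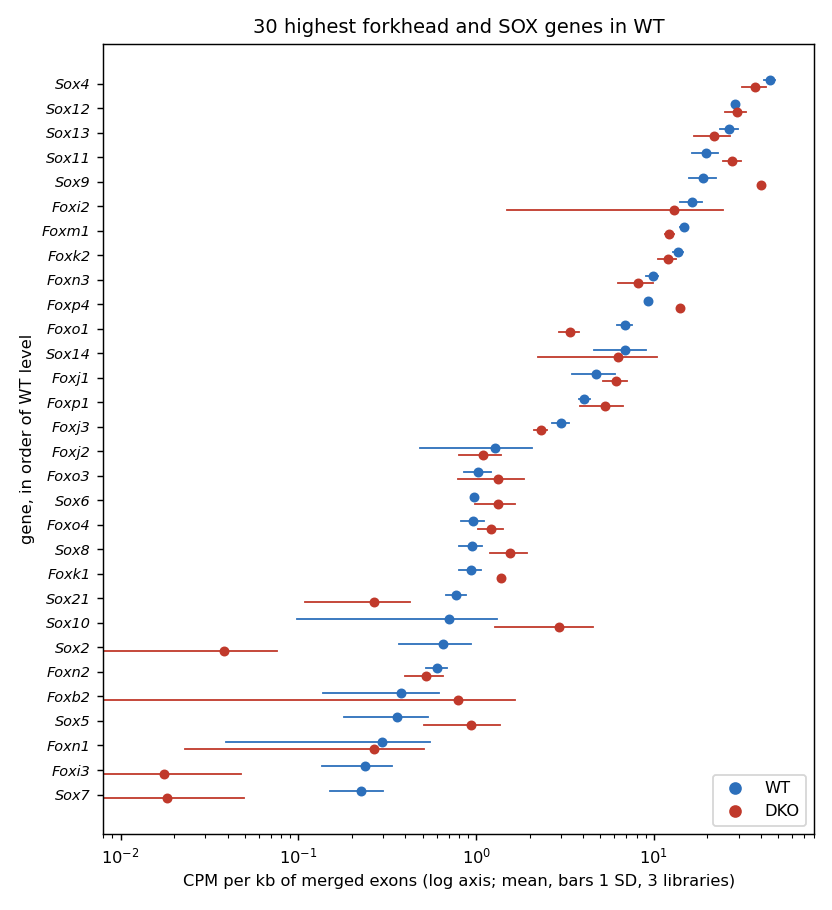
Level of the 30 highest forkhead and SOX genes in WT ectoderm, in order of their WT level. The x axis is CPM per kb of merged exons on a log axis, points are means of 3 libraries and bars are 1 SD, WT in blue and DKO in red. Sox9 moves from 19.0 in WT to 40.2 in DKO and Foxo1 from 6.87 to 3.36, while Sox12 is at 28.7 and 29.2.

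At the other end, 8 forkhead genes had 0 counts in all 6 libraries: Foxa2, Foxd3, Foxd4, Foxe3, Foxi1, Foxl1, Foxn4 and Foxr2. A count of 0 over a group of 3 libraries allows up to 3 counts, which is 0.012 CPM in DKO and 0.0127 CPM in WT, for counting error only. Foxa2, the endoderm factor, and Foxd3, a factor of premigratory neural crest, are among these 8. A further 13 members had some counts and did not pass the filter on low counts, among them Foxa1, Foxa3, Foxb1, Foxd1, Foxe1, Foxf1, Foxf2, Foxr1, Foxs1, Sox1, Sox3 and Sox15. Their group means were all under 0.30 CPM. Foxe1, a factor of thyroid and hair follicle, had 23, 37 and 4 counts in the WT libraries and 0 in every DKO library, at least 24.8-fold lower in DKO with 3 counts over the group as the floor. Foxe1 was not tested, and in a fit without a filter its adjusted p was 0.317. Sox15 had 23, 4 and 16 counts in DKO and 4, 0 and 0 in WT, with adjusted p = 0.392 in the same fit.

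The remaining 42 members, 26 forkhead and 16 SOX genes, were tested in a fit over all 19126 genes that passed the filter (edgeR's quasi-likelihood test with Benjamini-Hochberg adjustment, called at an adjusted p under 0.05). Of these 42 members 7 were called, 16.7%, beside 4.51% of all genes tested. Sox9, Foxp4, Sox17, Foxh1 and Foxc2 rose in the DKO ectoderm, against a background of 1.70% called higher. Foxo1 and Sox2 fell, against a background of 2.81% called lower. The 3 DKO libraries all lay above or all lay below the 3 WT libraries in 18 of the 42 tested members, 42.9%, beside 21.9% of all tested genes, with DKO higher in 11 (background 10.6%) and lower in 7 (11.3%). Foxh1 and Foxc2 passed the filter through the DKO libraries alone and Foxi3 through the WT libraries alone, so a difference in those genes was built into their passing. Of the 21 members with at least 5 CPM in the higher group, 3 were called (Sox9, Foxo1 and Foxp4), beside 5.88% of all genes at that level. The median log2 change was 0.04 over the tested members and 0.03 over all tested genes. At an unadjusted p under 0.05 there were 18 of 42 members, beside 18.0% of all genes. DESeq2 called 12 members, beside 9.63% of the genes it tested. The count depends on the libraries used. It was 7 without DKO 17 (beside 3.73% of all genes), 4 without DKO 40 (1.48%) and 10 without DKO 41 (4.61%). It was 3 without WT 32 (1.57%), 5 without WT 53 (2.65%) and 1 without WT 56 (1.23%), and only Sox9 was called each time. A fit without WT 32 (highest in Prrx1) and DKO 41 (highest in erythroid genes) called 4 members (Sox9, Foxo1, Sox17 and Foxi2), beside 1.97% of all genes tested. That pair was chosen after the data were seen, and DKO 40 was also high in Prrx1 and WT 53 in erythroid genes.

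**Figure D2:**
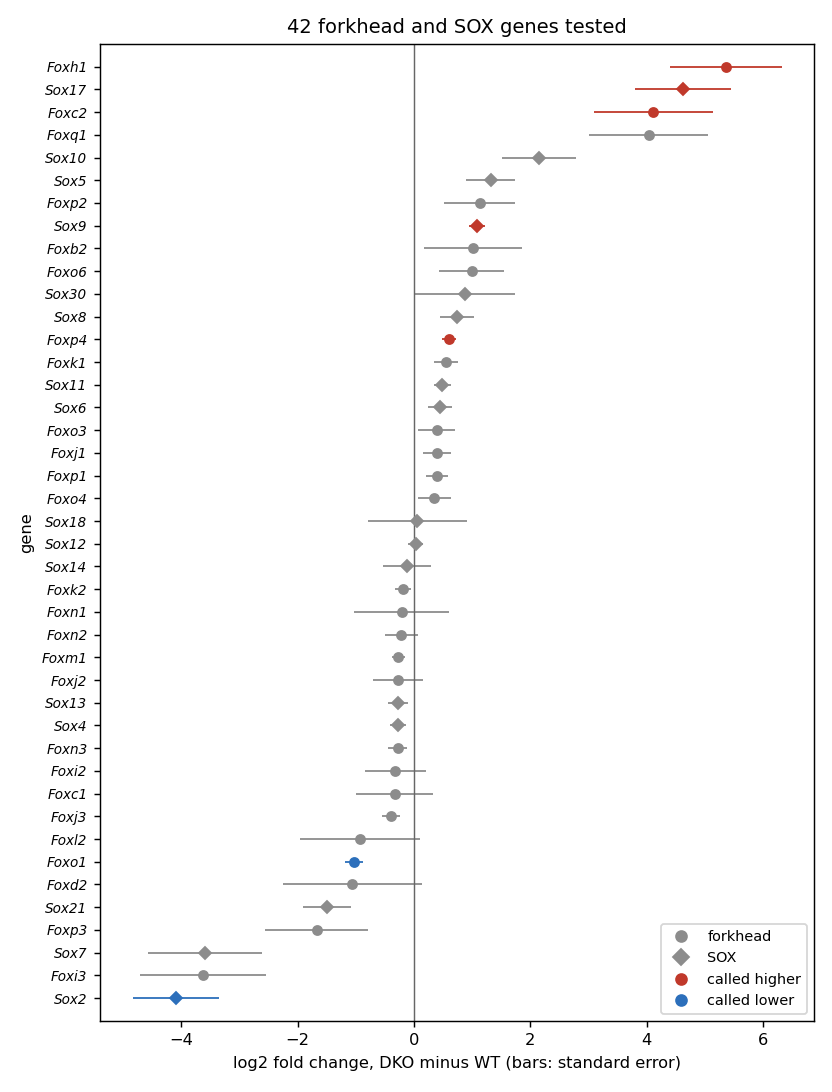
Log2 fold change, DKO minus WT, of the 42 tested members (x axis; bars are the standard error), in order of the change, with circles for forkhead and diamonds for SOX genes. Red marks the 5 genes called higher, blue the 2 called lower and grey the 35 not called. The grey Foxq1, Sox7 and Foxi3 lie further from 0 than some called genes, with errors about as wide as that of the called Foxc2.

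Sox9 was the member with the lowest adjusted p. SOX9 directs cartilage formation in limb mesenchyme and is also made in hair follicle progenitors and other epithelial buds. The gene (ENSMUSG00000000567.5) lies at chr11:112782224-112787760 of GRCm38. It measured 160.4, 173 and 166 CPM in DKO 17, DKO 40 and DKO 41, and 93.4, 67.9 and 74.4 CPM in WT 32, WT 53 and WT 56. Every DKO library was far above the highest WT library, and the DKO libraries lay close together. The means were 166 ± 6.47 CPM in DKO and 78.6 ± 13.3 CPM in WT (SD, n = 3), 2.12-fold higher in DKO (log2 change 1.08, SE 0.138, adjusted p = 0.00405). Sox9 was the only member called in every alternative fit run, with log2 changes between 0.99 and 1.20.

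The other SoxE genes, Sox10 of neural crest and glia and Sox8, had higher means in DKO and were not called. Sox10 measured 10.9, 12.5 and 3.21 CPM in DKO 17, DKO 40 and DKO 41 and 1.44, 4.26 and 0.767 CPM in WT 32, WT 53 and WT 56. The DKO 41 library lay below the WT 53 library, and the groups overlapped (log2 change 2.15, SE 0.638, adjusted p = 0.103). Without DKO 41, Sox10 was called higher (log2 change 2.56, adjusted p = 0.0285). Sox8 measured 5.99, 4.90 and 3.70 CPM in DKO and 2.64, 3.44 and 2.76 in WT, without overlap (log2 change 0.74, SE 0.298, adjusted p = 0.233), and an antisense gene shares 329 bases with its exons. The summed SoxE level was 44.7 ± 2.68 CPM per kb in DKO and 20.7 ± 2.82 in WT, 2.17-fold higher. Sox9 held 90.1% ± 3.98 of that sum in DKO and 91.8% ± 4.34 in WT, so the make-up of the group overlapped between genotypes.

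Neural crest and limb mesenchyme markers, which include places where SoxE genes are made, had these values. Of 10 tested neural crest and glia markers 2 rose, Ednrb, the endothelin receptor of crest cells (6.96 ± 1.42 against 1.02 ± 0.735 CPM, log2 change 2.68, adjusted p = 0.00964), and Ngfr, the low-affinity nerve growth factor receptor (20.8 ± 7.49 against 4.73 ± 1.93 CPM, log2 change 2.18, adjusted p = 0.0109). Both calls were lost without WT 56, and that of Ngfr also without WT 32. The list summed to 80.1 to 169 CPM in DKO and 67.0 to 105 CPM in WT, and Cdh19 was among the markers at 0 in all libraries. Of 17 tested limb mesenchyme markers edgeR called Pdgfra, a growth factor receptor, lower (7.66 ± 4.41 against 66.6 ± 28.6 CPM, log2 change -3.13, adjusted p = 0.00696) and none higher, 7 had an unadjusted p under 0.05, and DESeq2 called 2 higher and 2 lower. Higher means in DKO without a call were measured for the mesenchymal factors Twist2 (35.2 ± 28.5 against 3.41 ± 3.55 CPM, log2 change 3.32, adjusted p = 0.0780), Twist1 (29.5 ± 14.9 against 6.45 ± 7.29 CPM, log2 change 2.14, adjusted p = 0.135) and Prrx2 (108 ± 58.5 against 35.1 ± 15.6 CPM, log2 change 1.62, adjusted p = 0.0906). DKO 40 was the highest library for all 3. Col1a2 was lower in every DKO library than in any WT library and was not called (145 ± 39.6 against 262 ± 56.4 CPM, log2 change -0.85, adjusted p = 0.0704). Tbx5 also had a lower mean in DKO without a call (2.97 ± 1.82 against 5.29 ± 6.81 CPM), with WT 32 its highest library. The mesenchyme list's median log2 change was 0.28. The part of neural crest and mesenchyme in the SoxE values was not tested. In bulk RNA, more cells of a type and more RNA per cell cannot be told apart, nor fewer cells and less RNA per cell.

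Targets of SOX9 and the SoxD factors in cartilage were read from a list of 14 matrix genes, of which 9 were tested. Matn3, a cartilage matrix protein, was called higher (7.24 ± 1.92 CPM in DKO, 2.67 ± 0.591 in WT, log2 change 1.46, adjusted p = 0.0335), and none was called lower, while DESeq2 called 2 higher and none lower. Its edgeR call was lost without DKO 40, WT 32, WT 53 or WT 56, with adjusted p up to 0.181. Col2a1, the main cartilage collagen and the highest of the list, measured 641 ± 58.5 CPM in DKO and 759.9 ± 69.3 in WT (log2 change -0.24, adjusted p = 0.296). Col9a1 measured 15.1 ± 7.35 against 3.37 ± 2.64 CPM (log2 change 2.12, adjusted p = 0.0624), and Acan, the cartilage proteoglycan, lay under 0.30 CPM in both groups. The list's median log2 change was 0.57, beside 0.03 over all tested genes.

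The SoxD genes Sox5 and Sox6, partners of SOX9 in cartilage, measured higher in every DKO library than in any WT library and were not called. Sox5 measured 8.61, 20.3 and 11.4 CPM in DKO 17, DKO 40 and DKO 41 against 7.04, 2.24 and 6.21 CPM in WT 32, WT 53 and WT 56 (log2 change 1.32, SE 0.420, adjusted p = 0.128). An antisense gene, Sox5os1, covers 1330 bases of its exons, and these libraries keep no strand. Sox6 measured 17.7, 16.0 and 25.2 CPM in DKO and 14.7, 13.9 and 14.7 in WT (log2 change 0.45, SE 0.212, adjusted p = 0.315). Sox13, by far the highest SoxD gene per length, measured 94.6 ± 21.7 CPM in DKO and 114 ± 13.1 in WT (log2 change -0.27, adjusted p = 0.466).

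The SoxC genes, the highest SOX group in this ectoderm, gave no call. Their summed level was 94.1 ± 3.61 CPM per kb in DKO and 93.3 ± 6.58 in WT, with overlapping groups. Within the sum, Sox11 held 26.5%, 33.0% and 28.6% in DKO 17, DKO 40 and DKO 41 and 23.1%, 20.6% and 19.3% in WT 32, WT 53 and WT 56. Sox4 held 39.6% ± 6.39 of the sum in DKO and 48.2% ± 1.62 in WT, also without overlap. As CPM, Sox11 measured 202, 253 and 233 in DKO and 193, 155 and 141 in WT (log2 change 0.49, SE 0.145, adjusted p = 0.100). Sox4 measured 204, 149.5 and 182 CPM in DKO and 233, 203 and 210.3 in WT (log2 change -0.27, SE 0.134, adjusted p = 0.336), and 2616 bases of its exons are shared with an opposite-strand lincRNA, Gm26735. Sox12 measured 130.1 ± 17.5 CPM in DKO and 128 ± 5.78 in WT (log2 change 0.03, SE 0.128, adjusted p = 0.946), and the change was -0.01 without DKO 40, -0.06 without DKO 41 and -0.02 without WT 56.

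A list of 11 SoxC targets and partners had 2 called lower and none higher by edgeR, and 3 lower and 1 higher by DESeq2. Tubb3, a neuronal tubulin that SOX4 and SOX11 activate in neurons, measured 2.22 ± 1.49 CPM in DKO and 91.3 ± 22.5 in WT (log2 change -5.33, adjusted p = 1.82e-04). Vim, which encodes vimentin, measured 28.6 ± 3.56 CPM in DKO and 67.1 ± 12.7 in WT (log2 change -1.23, adjusted p = 0.00668). Both kept their call when any 1 library was left out. The list's median log2 change was -0.20. Other members of the list were not called: Stmn1 measured 1358 ± 90.9 against 1555 ± 56.3 CPM and Marcksl1 2951 ± 142 against 2594 ± 212 CPM in DKO and WT.

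**Figure D3:**
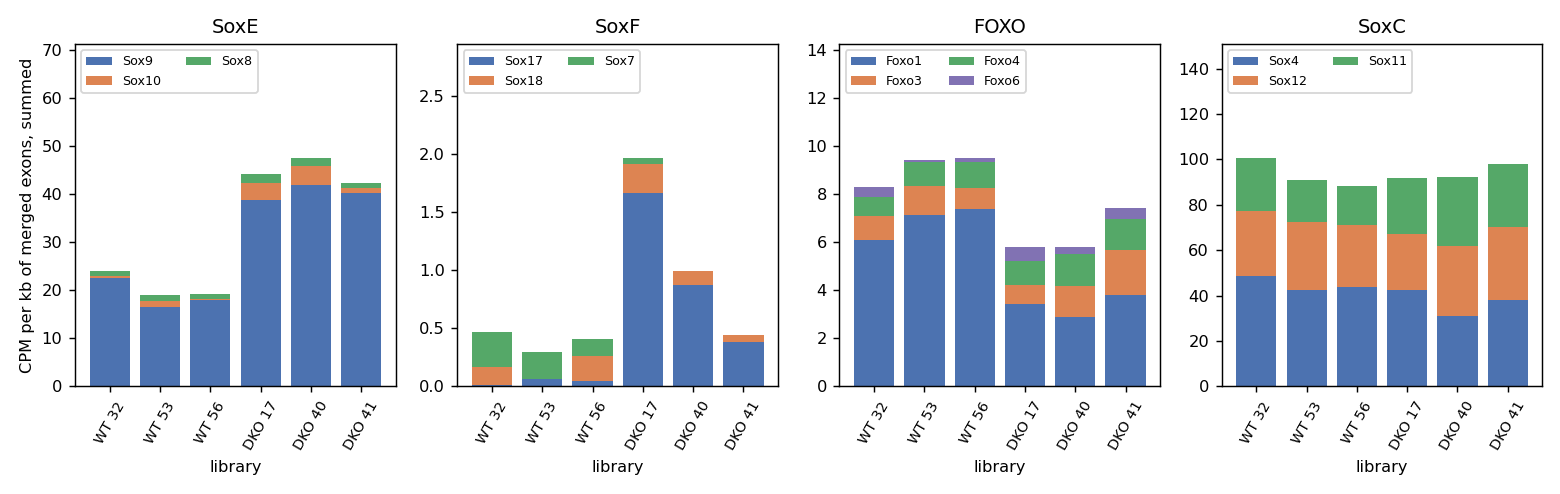
Summed level of 4 groups of related genes by library, as CPM per kb of merged exons, stacked by gene. SoxE averages 44.7 in DKO and 20.7 in WT, mostly Sox9 in both; SoxF is mostly Sox7 and Sox18 in WT and mostly Sox17 in DKO; Foxo1 is a smaller part of FOXO in DKO; and SoxC averages 94.1 in DKO and 93.3 in WT.

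Within the SoxF group Sox17 led in every DKO library, and Sox7 or Sox18 in every WT library. SOX7, SOX17 and SOX18 act in endothelium, and SOX17 also directs definitive endoderm. Sox17 (ENSMUSG00000025902.13, chr1:4490931-4497354) had 663, 318 and 163 counts in DKO 17, DKO 40 and DKO 41 and 5, 19 and 20 counts in WT 32, WT 53 and WT 56. As CPM these were 7.96, 4.16 and 1.83 in DKO and 0.0579, 0.300 and 0.229 in WT. The lowest DKO library was well above the highest WT library, although the DKO libraries differed among themselves by more than the whole WT level. Sox17 rose 23.8-fold between the means, 4.65 ± 3.10 and 0.196 ± 0.124 CPM (log2 change 4.62, SE 0.829, adjusted p = 0.0123). The call was lost without WT 32 (log2 change 4.12, adjusted p = 0.111) or WT 56 (log2 change 4.83, adjusted p = 0.0867). Exons of an opposite-strand transcript, Gm37587, share 804 bases with Sox17, and Gm37587 had 0 counts in every library.

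Sox7 was lower in DKO and was not called. It measured 0.180, 0 and 0 CPM in DKO and 0.984, 0.758 and 0.492 in WT, so that every WT library was above every DKO library (log2 change -3.59, SE 0.984, adjusted p = 0.0620). Sox18 overlapped between groups (0.231 ± 0.151 CPM in DKO, 0.199 ± 0.178 in WT, log2 change 0.06, adjusted p = 0.981). Of the summed SoxF level, Sox17 held 84.8%, 87.8% and 86.0% in the DKO libraries and 2.59%, 21.5% and 11.7% in WT. Sox7 held 2.77%, 0% and 0% in DKO against 63.8%, 78.5% and 36.5% in WT. The sum itself overlapped, with 1.13 ± 0.771 CPM per kb in DKO and 0.390 ± 0.0891 in WT.

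Of 9 tested endothelial markers none was called by edgeR, 2 had an unadjusted p under 0.05, and DESeq2 called 1 higher. The list summed to 62.4 to 99.1 CPM in DKO and 40.3 to 54.4 in WT, mostly from Egfl7 (58.7 ± 13.2 against 38.7 ± 7.61 CPM). The list's median log2 change was 1.02. Plvap was higher in every DKO library (4.06, 5.53 and 2.67 CPM against 1.35, 2.26 and 1.10 in WT, log2 change 1.42, adjusted p = 0.0957). Ramp2 (1.56 ± 0.673 against 0.525 ± 0.555 CPM) and Pecam1 (0.479 ± 0.290 against 0.230 ± 0.123 CPM) had higher means in DKO. Flt1 (0.309 ± 0.198 against 0.670 ± 0.235 CPM) and Esam had lower ones. Cdh5, the cadherin of endothelial junctions, was at 0 in all 6 libraries, and Emcn and Tie1 were at 0 in DKO. Kdr, the VEGF receptor of vessels, measured 0.132, 0.405 and 0 CPM in DKO and 0 in WT. Of 5 tested gut endoderm markers none was called by edgeR, 2 had an unadjusted p under 0.05, and DESeq2 called none, while edgeR called 1 higher without WT 32 and with a stricter filter. Trf, the transferrin gene, measured 2.00, 3.45 and 2.04 CPM in DKO and 0.857, 0 and 0.206 in WT, without overlap (log2 change 2.67, SE 0.645, adjusted p = 0.0519). Cdx2 of the same list went the other way, with 0.0720, 0 and 0 CPM in DKO and 0.359, 0.253 and 0.492 in WT (log2 change -3.89, SE 1.04, adjusted p = 0.0731). Pyy, which was not tested, was at 0 in every DKO library and measured 0.185, 0.111 and 0.275 CPM in WT. The endoderm list summed to 143 to 345 CPM in DKO and 88.8 to 239 in WT, nearly all of it the claudin gene Cldn4 (208 ± 116 against 178 ± 79.4 CPM), with Afp, Spink1 and Pdx1 at 0 in all libraries, as was Foxa2. The part of these cell types in the Sox17 values was not tested.

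The SoxB1 and SoxB2 genes were lower in DKO or overlapped. Sox2, a factor of pluripotent cells, neural progenitors and sensory placodes, lies at chr3:34650405-34652461 (ENSMUSG00000074637.7). It had 13, 0 and 7 counts in DKO 17, DKO 40 and DKO 41 and 125, 45 and 162 counts in WT 32, WT 53 and WT 56. As CPM these were 0.156, 0 and 0.0784 in DKO and 1.45, 0.711 and 1.85 in WT, so Sox2 was a low gene in this ectoderm and every DKO library was below every WT library. It fell 17.1-fold between the means, from 1.34 ± 0.580 to 0.0782 ± 0.0780 CPM (log2 change -4.09, SE 0.744, adjusted p = 0.00931). The call was lost without DKO 40 (log2 change -3.57, adjusted p = 0.0676) or WT 56 (log2 change -3.80, adjusted p = 0.0535), with glmQLFit legacy=TRUE (adjusted p = 0.111), and without WT 32 and DKO 41 together (0.115). The transcript Sox2ot, which spans the Sox2 locus, had 0 counts in every library.

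Sox3 of SoxB1 had 7, 5 and 5 counts in DKO and 17, 9 and 10 in WT and was not tested. Sox21 of SoxB2 measured 0.612, 0.732 and 1.71 CPM in DKO and 3.25, 3.06 and 2.52 in WT, without overlap (log2 change -1.49, SE 0.416, adjusted p = 0.0855). Without DKO 41, Sox21 was called lower (log2 change -2.14, adjusted p = 0.0313), and an opposite-strand lincRNA, Gm4675, shares 713 bases with its exons. Sox14, the highest SoxB gene, measured 8.21, 8.10 and 22.7 CPM in DKO and 13.9, 9.68 and 18.8 in WT (log2 change -0.12, SE 0.416, adjusted p = 0.914), and DKO 41 was its highest library. The change of Sox14 was 0.12 without DKO 17 or DKO 40 and 0.13 without WT 56. In SoxG and SoxH, Sox15 did not pass the filter and Sox30 measured 0.210 ± 0.0837 CPM in DKO and 0.104 ± 0.104 in WT (adjusted p = 0.669).

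SOX2 works with POU and PAX factors and, in placodes, beside EYA1. Of 12 tested partner genes edgeR called 3, all higher, and DESeq2 called 6, all higher. Among the 3 were Pax8 (15.6 ± 7.96 against 3.33 ± 2.03 CPM, log2 change 2.29, adjusted p = 0.0447) and Eya1 (20.4 ± 4.30 against 7.20 ± 2.46 CPM, log2 change 1.47, adjusted p = 0.0201). Pax8 lost its call when any library other than DKO 41 was left out, and Eya1 without DKO 40, WT 32 or WT 56. No partner was called without DKO 40, WT 32 or WT 56. In 3 of the alternatives 1 partner was called lower: without DKO 41, without WT 53, and without WT 32 and DKO 41 together. The partner list's median log2 change was 0.33. Pou3f1, a POU factor of epiblast and ectoderm, measured 0.138 ± 0.0998 CPM in DKO and 1.19 ± 0.990 in WT (log2 change -3.19, adjusted p = 0.0789). Markers of neurons and placodes summed to 59.6 to 77.4 CPM in DKO and 96.0 to 115 in WT. Of 9 tested genes 3 were called higher, among them Stmn2 and the shared Eya1, and 2 lower, Eya2 and Pou4f1. Eya2 measured 29.1 ± 4.59 CPM in DKO and 82.1 ± 15.2 in WT (log2 change -1.49, adjusted p = 0.00320) and kept its call whichever library was left out. Pou4f1 lost its call when any library other than WT 53 was left out. None was called higher without DKO 40, WT 32 or WT 56, and Stmn2 lost its call when any library other than DKO 41 was left out. Genes called lower, the direction of Sox2, numbered 1 or 2 whichever library was left out. The part of these cells in the SoxB values was not tested.

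SOX proteins also bind beta-catenin and its TCF partners. Of 14 tested genes in that list, Nkd1, a WNT feedback inhibitor, was called higher (70.7 ± 20.0 against 33.2 ± 2.53 CPM, log2 change 1.09, adjusted p = 0.0230) and Ctnnb1, which encodes beta-catenin, lower (1175 ± 213 against 1791 ± 197 CPM, log2 change -0.61, adjusted p = 0.0477). Nkd1 lost its call without DKO 40, WT 32, WT 53 or WT 56, and Ctnnb1 when any library other than DKO 41 was left out. DESeq2 called 3 of the list higher and 2 lower. The median log2 change of the list was -0.10.

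Among forkhead genes Foxo1 had the lowest adjusted p. FOXO proteins are held in the cytoplasm by AKT when insulin or growth factor signalling is high, and in the nucleus they turn on genes of cell cycle arrest, stress resistance and insulin response. Foxo1 (ENSMUSG00000044167.6) lies at chr3:52268336-52353221. It measured 29.6, 25.0 and 32.8 CPM in DKO 17, DKO 40 and DKO 41 and 52.7, 61.9 and 64.1 in WT 32, WT 53 and WT 56. All DKO libraries were clearly below all WT libraries, and both groups were tight. Foxo1 fell 2.04-fold between the means, from 59.5 ± 6.08 to 29.2 ± 3.93 CPM (log2 change -1.03, SE 0.154, adjusted p = 0.00794). The call was lost in a single alternative, without WT 56 (adjusted p = 0.0514). An antisense gene, Gm20402, shares 674 bases with its exons, and had 1 count in WT 32 and 0 in every other library.

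The other FOXO genes were not called. Foxo3 measured 6.16, 9.71 and 14.2 CPM in DKO and 7.62, 9.17 and 6.50 in WT (log2 change 0.39, SE 0.318, adjusted p = 0.593). Foxo4 measured 4.26 ± 0.692 CPM in DKO and 3.36 ± 0.503 in WT (adjusted p = 0.582), and Foxo6 1.16 ± 0.390 and 0.554 ± 0.436 (adjusted p = 0.404). Whether these changes differ from that of Foxo1 was not tested. The summed FOXO level was 6.36 ± 0.935 CPM per kb in DKO and 9.07 ± 0.690 in WT, without overlap, and Foxo1 held 58.8%, 49.6% and 51.0% of it in DKO 17, DKO 40 and DKO 41 against 73.4%, 75.7% and 77.8% in WT 32, WT 53 and WT 56.

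The start regions of Foxo1 and Foxp4, the called members above 5 CPM that the RefSeq table covers, and of Foxo3, a relative of Foxo1 that was not called, show where GC boxes of the kind Sp factors bind lie near these genes. Each sequence is the part outside the annotated gene of the 250 bases before the RefSeq start (GRCm38.p6), 5′ to 3′ on the gene's strand, with GC boxes (GGGCGG, or CCGCCC on the other strand) in capitals. Foxo1 is on the plus strand at chr3:52268087-52268335, Foxo3 on the minus strand at chr10:42276756-42276945, and Foxp4 on the minus strand at chr17:47924646-47924882.
Foxo1: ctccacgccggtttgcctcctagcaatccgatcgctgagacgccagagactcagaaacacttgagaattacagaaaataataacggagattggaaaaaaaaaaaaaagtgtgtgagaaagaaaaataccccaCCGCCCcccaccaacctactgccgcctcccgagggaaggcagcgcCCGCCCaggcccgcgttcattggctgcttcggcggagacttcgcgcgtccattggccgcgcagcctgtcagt
Foxo3: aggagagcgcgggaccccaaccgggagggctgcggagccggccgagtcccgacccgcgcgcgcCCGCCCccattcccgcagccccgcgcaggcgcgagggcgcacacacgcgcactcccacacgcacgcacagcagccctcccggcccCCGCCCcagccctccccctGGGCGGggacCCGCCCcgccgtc
Foxp4: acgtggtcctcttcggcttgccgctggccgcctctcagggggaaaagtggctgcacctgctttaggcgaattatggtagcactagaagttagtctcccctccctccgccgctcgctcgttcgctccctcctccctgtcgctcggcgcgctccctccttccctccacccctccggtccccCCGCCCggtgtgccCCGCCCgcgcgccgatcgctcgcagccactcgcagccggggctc
Foxo1, which fell, and Foxp4, which rose, each held 2 GC boxes in the stretch shown, and Foxo3, which was not called, held 4 in a shorter one. The share of G and C was 55.8% for Foxo1, 81.6% for Foxo3 and 69.6% for Foxp4. RefSeq windows were found for 41 of the 63 members, 51 windows in all, and 31 of these held a GC box (60.8%), beside 32.7% of all 32851 windows of 250 bases. Forkhead and SOX windows are rich in G and C: among windows with at least 60% G and C, 24 of 28 member windows held a GC box (85.7%), beside 76.5% of all such windows. A match says only that these letters are there.

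A list of 23 FOXO targets and regulators, all tested, had 2 called lower and 1 higher by edgeR, and 5 lower and 1 higher by DESeq2. Sesn1, a stress-response gene that FOXO proteins turn on, measured 22.2 ± 4.52 CPM in DKO and 52.3 ± 8.49 in WT (log2 change -1.23, adjusted p = 0.00947). Irs2, an adaptor of the insulin receptor and another FOXO target, measured 36.3 ± 1.34 against 69.3 ± 12.3 CPM (log2 change -0.93, adjusted p = 0.0128). Bbc3, which encodes the pro-apoptotic PUMA and is also a p53 target, measured 17.8 ± 3.42 against 8.76 ± 1.85 CPM (log2 change 1.05, adjusted p = 0.0394). Sesn1 lost its call without DKO 40, Irs2 without DKO 40 or WT 32, and Bbc3 without DKO 40, DKO 41, WT 32 or WT 56. Most of the list was not called: Akt1 measured 342 ± 12.1 CPM in DKO and 410.0 ± 10.3 in WT (adjusted p = 0.172), and Gadd45a, an arrest gene, 12.7 ± 2.03 and 20.9 ± 0.917 (log2 change -0.71, adjusted p = 0.0682). Others without a call were higher in every DKO library than in any WT library. These were Sesn3 (42.3 ± 11.7 against 29.4 ± 3.03 CPM, adjusted p = 0.218), Cat (106 ± 8.14 against 85.8 ± 7.58 CPM, adjusted p = 0.222) and Cdkn1b (1.68 ± 0.357 against 0.774 ± 0.427 CPM, adjusted p = 0.255). The median log2 change of the list was -0.11.

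Foxp4 was the called FOXP gene. FOXP factors are repressors of lung, heart, gut and neural development that pair with each other through a leucine zipper. Foxp4 (ENSMUSG00000023991.16, chr17:47867133-47924645) measured 67.0, 71.7 and 67.6 CPM in DKO 17, DKO 40 and DKO 41 and 44.5, 46.8 and 44.7 in WT 32, WT 53 and WT 56. The spread within each group was small beside the gap between them. Foxp4 rose 1.52-fold, from 45.4 ± 1.30 to 68.8 ± 2.60 CPM (log2 change 0.60, SE 0.117, adjusted p = 0.0232). Its call was lost without DKO 40 (adjusted p = 0.112), WT 32 (0.130), WT 53 (0.0550) or WT 56 (0.128), and without WT 32 and DKO 41 together (0.146).

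Foxp1 measured 67.6, 56.2 and 94.7 CPM in DKO and 54.9, 60.2 and 52.6 in WT, with DKO 40 inside the WT range (log2 change 0.39, SE 0.190, adjusted p = 0.332). Foxp2 measured 0.885 ± 0.498 CPM in DKO and 0.390 ± 0.236 in WT (adjusted p = 0.379). Foxp3, the regulatory T cell factor, measured 0.129 ± 0.173 and 0.395 ± 0.0693 CPM (adjusted p = 0.355), and its exons overlap those of Ccdc22 and other genes, so part of these counts may belong to them. The summed FOXP level was 19.3 ± 1.18 CPM per kb in DKO and 13.4 ± 0.536 in WT, without overlap.

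The remaining 2 called forkhead genes were nearly silent in WT. FOXH1 carries activated SMAD proteins to Nodal targets in the early embryo. Foxh1 (ENSMUSG00000033837.5, chr15:76668225-76669948) had 111, 240 and 93 counts in DKO 17, DKO 40 and DKO 41 and 3, 0 and 7 counts in WT 32, WT 53 and WT 56. It rose 48.0-fold between the means, from 0.0383 ± 0.0402 to 1.84 ± 1.13 CPM (log2 change 5.36, SE 0.963, adjusted p = 0.0117), and the groups did not overlap. The call was lost without WT 32 (log2 change 5.20, adjusted p = 0.101) or WT 56 (log2 change 6.37, adjusted p = 0.127), and without WT 32 and DKO 41 together (adjusted p = 0.0607).

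FOXC2 acts in mesenchyme, kidney and lymphatic vessels. Foxc2 (ENSMUSG00000046714.7, chr8:121116171-121118895) had 160, 48 and 34 counts in DKO and 8, 0 and 5 in WT. It rose 19.5-fold, from 0.050 ± 0.0467 to 0.976 ± 0.827 CPM (log2 change 4.11, SE 1.02, adjusted p = 0.0441), and most of the DKO mean came from DKO 17. The call was lost when any library but DKO 41 was left out, with log2 changes from 3.14 without DKO 17 to 4.79 without WT 32 and adjusted p up to 0.258. It was also lost with legacy=TRUE (adjusted p = 0.119), with no filter (0.0886) and without WT 32 and DKO 41 together (0.116). Its neighbours on chromosome 8 stayed low: Foxf1 had 2, 8 and 0 counts in DKO and 4, 0 and 0 in WT, and Foxl1 had none. Foxc1, its closest relative, measured 0.228, 1.10 and 0.224 CPM in DKO and 0.486, 0.853 and 0.584 in WT (log2 change -0.33, SE 0.665, adjusted p = 0.854).

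Foxq1, a forkhead gene of hair and gut epithelium, had the highest fold among tested members that were not called. It measured 0.360, 3.65 and 4.51 CPM in DKO 17, DKO 40 and DKO 41 and 0.278, 0 and 0.195 in WT 32, WT 53 and WT 56. DKO 17 was close to WT and the other DKO libraries were an order of magnitude above it (log2 change 4.03, SE 1.03, adjusted p = 0.0532). Without DKO 17, Foxq1 was called higher (log2 change 4.56, adjusted p = 0.00390). An opposite-strand gene, A530084C06Rik, shares 3200 bases with its exons, so the reads cannot be assigned to Foxq1 alone. A530084C06Rik itself had 0 counts in every DKO library and 9, 0 and 8 in WT 32, WT 53 and WT 56. How reads in shared bases were counted is not given. Foxq1 and Foxc2 were high in different DKO libraries.

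**Figure D4:**
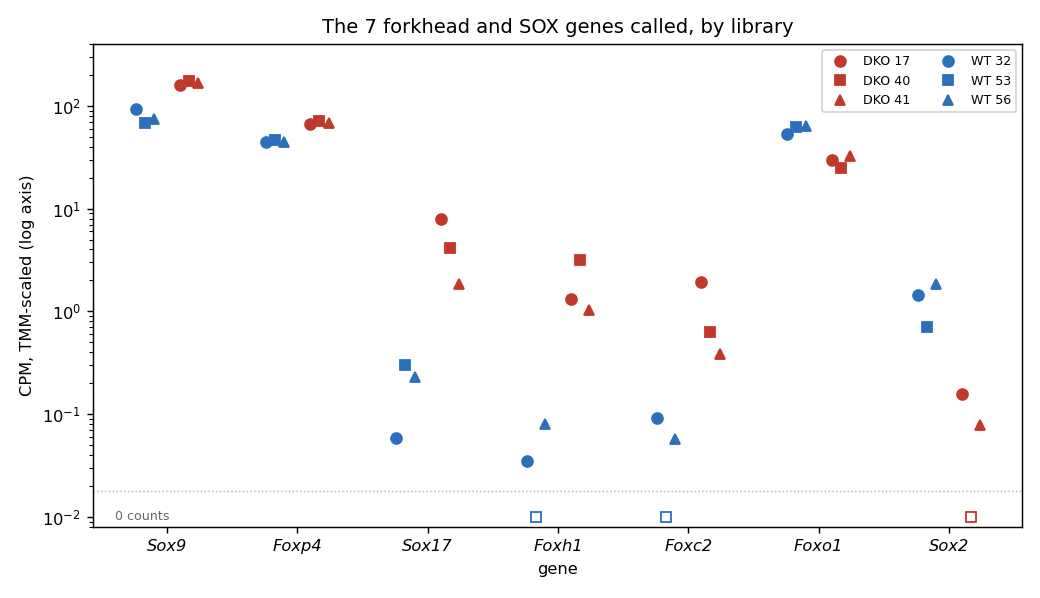
CPM of the 7 called members in each library (log axis), DKO in red and WT in blue, 1 symbol for each library; open symbols under the dotted line stand for 0 counts. The gap is narrow and the points tight for Sox9, Foxo1 and Foxp4, and wide with scattered points for Sox17, Foxh1, Foxc2 and Sox2.

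The Foxi genes belong to surface ectoderm and its placodes. Foxi2 measured 16.8, 17.1 and 70.0 CPM in DKO 17, DKO 40 and DKO 41 and 37.5, 49.7 and 43.6 in WT 32, WT 53 and WT 56. DKO 17 and DKO 40 lay below every WT library and DKO 41 above every one, and the fit gave no call (log2 change -0.32, SE 0.522, adjusted p = 0.816). Without DKO 41, Foxi2 was called lower (log2 change -1.37, SE 0.184, adjusted p = 0.00967), while the change was 0.02 without DKO 17 and 0.00 without DKO 40. DKO 41 was also the library with 922 CPM of erythroid genes. It was more than 1.5 times the next DKO library in 7 of the 42 tested members and in 10.1% of all tested genes. The part of that library's make-up in the Foxi2 value was not tested. Foxi3, which is needed for teeth, hair and the ear, had 0, 0 and 0.0672 CPM in DKO and 0.405, 0.158 and 0.343 in WT, without overlap and without a call (log2 change -3.63, SE 1.08, adjusted p = 0.0985).

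The forkhead genes of broad expression gave no call. Foxm1 measured 74.1, 66.1 and 70.5 CPM in DKO and 87.3, 79.7 and 86.6 in WT, without overlap (log2 change -0.27, SE 0.115, adjusted p = 0.258). Its 18 mitotic targets had no call in either direction (2 with an unadjusted p under 0.05, and 1 called higher by DESeq2) and a median log2 change of 0.10. Plk1, the mitotic kinase, measured 337 ± 32.1 CPM in DKO and 310.2 ± 3.20 in WT, and Aurka 245 ± 14.7 and 245 ± 12.7.

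Foxk1 measured 10.7, 10.2 and 10.4 CPM in DKO and 8.21, 6.27 and 6.78 in WT, without overlap (log2 change 0.55, SE 0.208, adjusted p = 0.197). Its relative Foxk2, 89.6% ± 1.02 of the summed FOXK level in DKO and 93.6% ± 0.843 in WT, measured 69.6, 64.8 and 55.2 against 71.7, 67.0 and 77.0 CPM (log2 change -0.19, adjusted p = 0.525). Foxj3 measured 25.6, 23.1 and 27.3 CPM in DKO and 34.1, 29.1 and 36.1 in WT, again without overlap (log2 change -0.39, SE 0.155, adjusted p = 0.225). Foxn3, a checkpoint repressor, measured 81.2, 80.6 and 117 CPM in DKO and 106, 123 and 110.0 in WT (log2 change -0.28, adjusted p = 0.429). Foxj2 measured 5.82 ± 1.56 CPM in DKO and 6.81 ± 4.20 in WT (log2 change -0.27, adjusted p = 0.811, and 0.25 without WT 56), and Foxn2 3.86 ± 0.921 and 4.44 ± 0.612 (adjusted p = 0.757).

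Foxj1, the switch for motile cilia, measured 14.9, 14.3 and 18.9 CPM in DKO and 9.11, 15.9 and 12.3 in WT (log2 change 0.39, SE 0.239, adjusted p = 0.449). Of its cilia targets 11 were tested and none was called (2 had an unadjusted p under 0.05, and DESeq2 called 1 higher), with a median log2 change of 0.53. Tekt1, a tektin of the ciliary axoneme, measured 6.50 ± 0.743 CPM in DKO and 3.96 ± 0.244 in WT (adjusted p = 0.151), and Tekt4 and Spag6 were at 0 in all libraries. The tested members not yet named lay under 1.2 CPM in both groups and overlapped: Foxb2 (adjusted p = 0.597), Foxd2 (0.712), Foxl2 (0.712) and Foxn1 (0.926).

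Forkhead proteins work with SMAD, NFAT and Groucho (TLE) partners and with histone deacetylase complexes. Of 20 tested co-factors edgeR called 2, both lower and both of the Groucho family, and DESeq2 called 4 lower and 1 higher. Tle4, a co-repressor, measured 37.8 ± 1.71 CPM in DKO and 75.7 ± 5.76 in WT (log2 change -1.0, adjusted p = 0.00374), and its call held whichever library was left out. Tle5, a short relative that lacks the repressor's WD40 part, measured 328 ± 27.2 against 519 ± 63.8 CPM (log2 change -0.66, adjusted p = 0.0192) and lost its call without DKO 40, WT 53 or WT 56. Tle1 measured 84.2 ± 13.4 and 71.9 ± 8.85 CPM and Tle3 42.2 ± 2.23 and 38.9 ± 6.17, neither called. Smad2, a partner of FOXH1, measured 85.5 ± 6.58 CPM in DKO and 112 ± 9.72 in WT (log2 change -0.39, adjusted p = 0.118). The median log2 change of the list was 0.05.

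**Figure D5:**
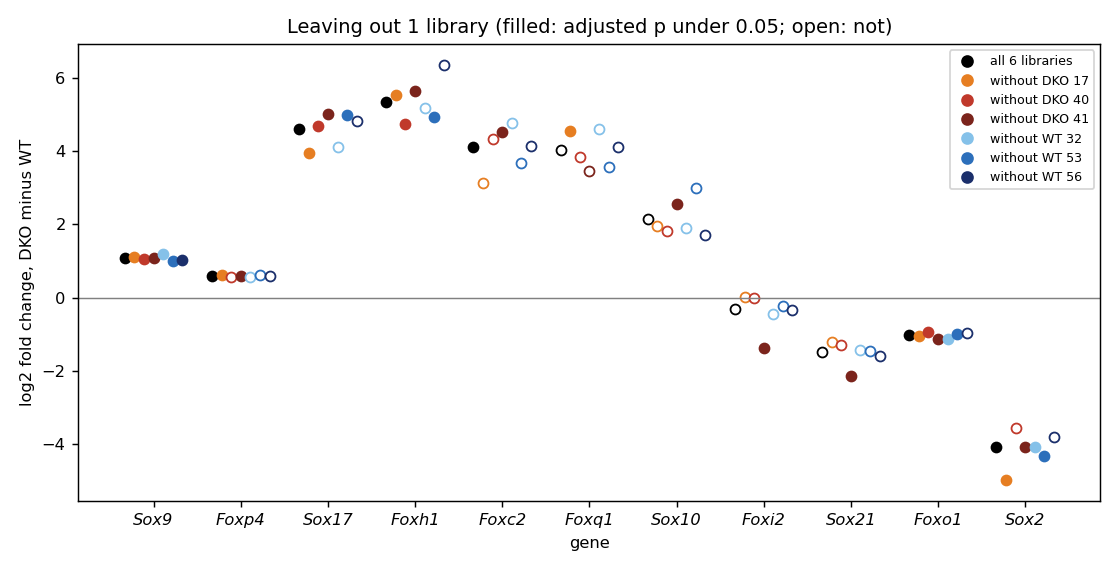
Log2 fold change, DKO minus WT, of 11 members with all 6 libraries (black) and with each library left out in turn; filled points have an adjusted p under 0.05. Sox9 is filled throughout, Foxo1 is open only without WT 56, and Foxi2 is filled only without DKO 41, at -1.37.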

How the data were processed

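RNA of E9.75 forelimb bud ectoderm was measured in 3 DKO and 3 WT libraries made with the SMART-Seq v4 and Nextera XT kits, per the labels' protocols, which keep neither strand nor molecular identifiers. The authors' deposited table holds whole-number counts of each gene, with no scaling. The tools FastQC, fastp, HISAT2, Cufflinks, StringTie and DESeq2 and the builds GRCm38 and mm10 are named without roles, per the submitters' processing notes; the step that wrote the counts is not given in the sources used here. The columns name a genotype and a number that matches no replicate number of the labels, so each was taken as a replicate of its group.

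Counts were fitted with edgeR 4.0.16 in R 4.3.3 (filterByExpr, which asked for 0.116 CPM in 3 libraries here, TMM factors, glmQLFit with robust=TRUE and legacy=FALSE, glmQLFTest), with p-values adjusted by Benjamini-Hochberg over 19126 genes. Library totals of 64432348 to 87040786 set the precision, and the floor is 3 counts over a group. The standard error is the size of the log2 change over the square root of F. CPM are TMM-scaled, and lengths, positions and overlaps are from GENCODE M21, which matched 99.53% of gene identifiers. The steps were tested on simulated data with changes planted only in genes above 5 CPM. That test does not cover the lower levels of Sox17, Foxh1, Foxc2 and Sox2. Alternatives were DESeq2 1.42.0, other scalings, filters and fit settings, and leaving out libraries. Members called, those with at least 5 CPM in the higher group, and Sp8 and Sp6 were named by rule; other members and the list genes given with values were chosen after their values were seen. The members and lists were chosen with earlier results of these data known. Values of a few genes are not reported here.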

Additional observations from a re-analysis of the deposited data

How the results depend on the processing

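No paired analysis was possible because the columns' numbers match no replicate number of the labels. Over all genes, 863 were called in the fit reported, 1696 with DESeq2, 546 with glmQLFit legacy=TRUE, 412 with no filter, 377 without WT 32 and DKO 41 together (chosen after seeing the data), and 247 to 918 with 1 library left out. Members called numbered 7, 12 with DESeq2 (adding Foxq1, Sox10, Sox11, Sox21 and Sox5), 4 without WT 32 and DKO 41, and 1 to 10 with 1 library left out. Of these, called higher were 5, 9 with DESeq2, 2 without WT 32 and DKO 41, and 1 to 6 with 1 library left out. Called lower were 2, 1 with legacy=TRUE, 1 with a stricter filter, and 0 to 4 with 1 library left out. The cause of these shifts was not tested, except that leaving out a library leaves fewer samples. RLE factors, library totals and robust=FALSE kept the member counts. The 10 highest members per kb in WT were 10 of the same 10 with the longest transcript as length, in another order. The log2 change took the other sign for Foxi2 without DKO 17 (0.02) or DKO 40 (0.00; -1.37 to 0.02 with 1 library left out), Foxj2 without WT 56 (0.25; range -0.60 to 0.25), Sox12 without DKO 40 (-0.01), DKO 41 (-0.06), WT 56 (-0.02) or WT 32 and DKO 41 (-0.08), and Sox14 without DKO 17 (0.12), DKO 40 (0.12) or WT 56 (0.13; range -0.82 to 0.13), none of them called with that sign. With 3 libraries a group and low counts, Sox2, Foxh1 and Foxc2 rest on 0 to 240 counts a library.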
